A study of Mus musculus with 11 samples.

Results

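The glucocorticoid receptor axis was followed through 10 genes, taken by symbol from the 47643 gene symbols measured in fibroblasts of mouse normal skin and 5-day wounds. Nr3c1 encodes the receptor. Hsd11b1 encodes the enzyme that regenerates active glucocorticoid inside the cell. Fkbp5, Tsc22d3, Zbtb16, Sgk1, Klf9, Dusp1, Mt1 and Mt2 are genes that glucocorticoids induce in many cell types. All 10 were present in the table, and all 10 passed the filter for low values, which asked for 2 or more libraries with an RPKM of 1 or above. RPKM divides the reads on a gene by its length and by the depth of the library.

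The fibroblasts came from back skin without a wound (NS) and from excisional wounds at day 5 (5dw) of K14-Act mice (Act) and their wild-type littermates (WT), with 3 libraries each of WT NS, Act NS and WT 5dw and 2 of Act 5dw. Act mice overexpress INHBA, which encodes the subunit of activin A, in keratinocytes under the keratin 14 promoter, so the transgene is not driven in the sorted fibroblasts by design. All mice were the F1 offspring of CD-1 and C57BL/6 parents, aged 9 to 12 weeks, and carried no other allele named in the labels. Cells were released by digestion for 1 h at 37 °C and sorted as live, CD140a-positive cells without CD45, CD11b and F4/80, and per the labels without CD3, and the RNA of 3 mice was pooled in each library. The Act 5dw libraries carry the numbers 1 and 3, since the authors excluded the library numbered 2 in their quality control. As each library is a pool, p-values measure the spread between pools and not between single mice.

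Glucocorticoids are steroid hormones that enter the cell and bind the glucocorticoid receptor, which is held ready by HSP90 and immunophilins such as FKBP51, the product of Fkbp5. The bound receptor moves to the nucleus, where it activates genes at glucocorticoid response elements and dampens inflammatory genes driven by NF-kappaB and AP-1. In skin, glucocorticoids limit inflammation, fibroblast growth and collagen synthesis, and slow repair. The amount of active hormone in a cell depends on Hsd11b1 as well as on the supply from blood. Most of these target genes also answer to other signals: Dusp1 to stress and mitogens, Sgk1 to serum and osmotic stress, and the metallothioneins Mt1 and Mt2 to zinc and other metals through MTF1. Expression of the targets is therefore not a measure of hormone, which was not assayed.

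RefSeq promoter windows of GRCm38.p6 ran from 250 bases before to 50 after each gene start in the table. They were used for 8 of the 10 members, in 15 entries, and none was used for Nr3c1 or Zbtb16. The palindromic response element, AGAACA, any 3 bases and TGTTCT, was searched on both strands, and 3 of 32851 promoters (0.00913%) held it. An entry of Sgk1, at chr10:21993640-21993939 on the plus strand, was among these 3. It is printed because Sgk1 was the member that rose with wounding. Capitals mark the element, whose first base lies at -189 from the start, and a further single arm (TGTTCT) at -242. A single arm, AGAACA or TGTTCT, was in 19% of promoters. It was also in the Sgk1 entries at chr10:21881934-21882233 and chr10:21991973-21992272. Among the entries used of other members it was found in 1 of Tsc22d3, and Nr3c1 and Zbtb16 were not covered.
Sgk1: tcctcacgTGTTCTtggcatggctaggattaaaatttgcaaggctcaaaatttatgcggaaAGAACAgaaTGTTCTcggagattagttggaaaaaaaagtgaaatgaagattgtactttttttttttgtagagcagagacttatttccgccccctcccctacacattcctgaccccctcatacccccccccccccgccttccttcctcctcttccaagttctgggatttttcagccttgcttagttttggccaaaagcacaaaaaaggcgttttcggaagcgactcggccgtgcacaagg

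The metal response element core, TGCACNC or TGCGCNC on either strand, was in 25.7% of the promoters, 4 or more copies in 0.517%. The windows of Mt1 (chr8:94178839-94179138, plus strand) and Mt2 (chr8:94172368-94172667, plus strand) are shown because these neighbouring genes are commonly read as a pair. Capitals mark the cores. Mt2 held 4, with first bases at -223, -128, -50 and 5, and Mt1 held 3, at -23, 3 and 21, where positive positions count from the start itself. A match is a description of letters and not a shown binding site.
Mt1: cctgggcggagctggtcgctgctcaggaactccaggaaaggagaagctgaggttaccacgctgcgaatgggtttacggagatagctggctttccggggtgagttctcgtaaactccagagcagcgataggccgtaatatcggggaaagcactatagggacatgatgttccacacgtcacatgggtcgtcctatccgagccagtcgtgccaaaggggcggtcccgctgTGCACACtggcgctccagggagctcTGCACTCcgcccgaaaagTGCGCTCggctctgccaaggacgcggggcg
Mt2: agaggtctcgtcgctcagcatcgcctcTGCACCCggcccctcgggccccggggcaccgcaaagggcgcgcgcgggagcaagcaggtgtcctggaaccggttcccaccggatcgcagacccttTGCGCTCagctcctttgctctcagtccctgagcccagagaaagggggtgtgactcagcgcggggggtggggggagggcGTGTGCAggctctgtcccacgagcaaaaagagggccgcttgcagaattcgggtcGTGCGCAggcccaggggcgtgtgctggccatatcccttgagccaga

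Mapped reads per library, recovered from the RPKM values, ranged from 18649321 to 39702138. Depth followed group in part, as the 3 WT 5dw libraries held 38740404 or more and all others 29718956 or fewer. The paper also states a larger RNA input for 5dw than for NS. The part of depth and input in the wounding comparison was not tested. Between 212 and 55787 reads lay behind each value of 8 members, with Tsc22d3 in the wounds at the low end and Dusp1 at the high end. For Hsd11b1 and Zbtb16 the values did not give whole reads, so the reads behind them are not known. CD140a itself (Pdgfra) was at 49.8 to 65.3 RPKM in NS and 29.6 to 37.3 in 5dw, and Ptprc, which encodes CD45, was at or under 0.0498 in every library. Inhba, the mouse counterpart of the transgene, was at 3.40 to 6.93 RPKM in WT NS and 36.3 to 91.1 in Act NS. In the wounds it was at 15.8 to 24.0 in WT and 26.2 to 50.2 in Act, and whether reads of the transgene were counted on it was not tested. The Act NS library numbered 1 stood apart, with the lowest summed RPKM (225686, against 240740 to 278066 in the others). Together with the WT NS library numbered 1 it was left out in a repeat of all tests, and no call of a member changed.

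Wounding was the condition under which the members differed. In WT and in Act, 5 of the 10 members were lower in 5dw than in NS: Nr3c1, Hsd11b1, Tsc22d3, Zbtb16 and Klf9. Sgk1 was higher in both, and Fkbp5, Dusp1, Mt1 and Mt2 did not pass the test (limma, adjusted p under 0.05). Values in the 6 NS libraries and the 5 5dw libraries did not overlap for any of the 6 genes that passed. Such separation was not particular to the members, as the coactivator genes Ncoa1 and Ncoa3 showed it too. Its share over all tested genes was not counted. In bulk RNA, fewer cells of a type and less RNA per cell cannot be told apart. These counts stand against a background in which many genes were lower in the wounds. In WT, 48.8% of the 11979 tested genes were called lower and 9.45% higher. In Act, 36.5% were called lower and 9.04% higher. The median difference over all tested genes was -0.40 in WT and -0.31 in Act on the log2 scale. Median-ratio scaling, which brings the typical gene to the same level in all libraries, evened this out: 21.2% lower and 23.4% higher in WT, 20.4% lower and 20.3% higher in Act. On that scale the same 5 members were lower and Sgk1 was higher in both genotypes, and Mt2 joined Sgk1 as higher in WT.

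**Figure D1:**
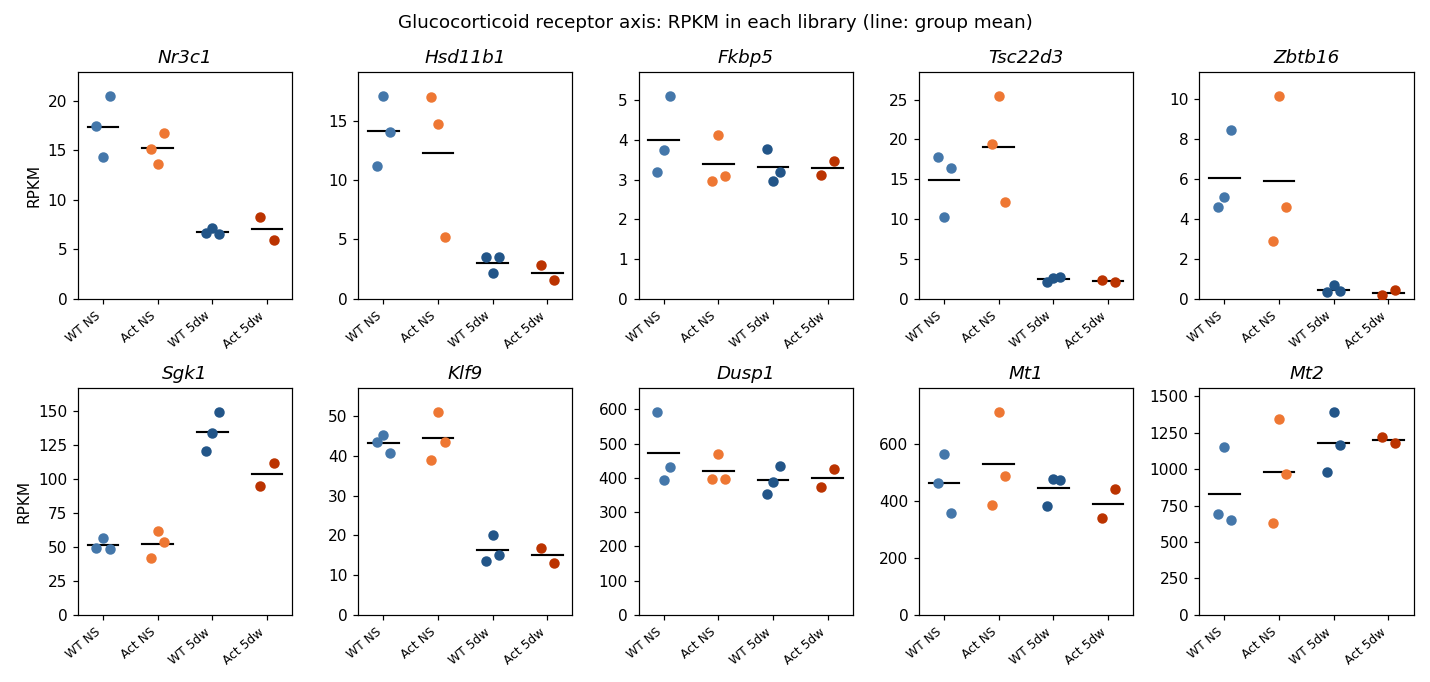
RPKM (vertical axis, linear from 0) of the 10 members in the 11 libraries, by group, with 1 point per library and a line at the group mean. Nr3c1, Hsd11b1, Tsc22d3, Zbtb16 and Klf9 lie lower in all 5 wound libraries than in any NS library, Sgk1 lies higher, and the other 4 genes overlap.

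Nr3c1, the receptor gene, was lower in wounds. It was at 17.4, 14.3 and 20.5 RPKM in the WT NS libraries numbered 1, 2 and 3, and at 15.2, 13.7 and 16.8 in Act NS. The WT wounds held 6.60, 7.14 and 6.55, and the Act wounds 8.22 and 5.95. The lowest NS library thus lay above the highest wound library. In WT the means differed 2.57-fold, 17.4 ± 3.10 against 6.76 ± 0.325 (SD, n = 3 each). In Act they differed 2.15-fold, 15.2 ± 1.56 (n = 3) against 7.09 ± 1.60 (n = 2). Wounding gave a log2 difference of -1.29 (SE 0.16, limma adjusted p = 9.39e-05) in WT and -1.06 (SE 0.18, adjusted p = 0.000898) in Act. After median-ratio scaling it was -0.83 and -0.71. Of all tested genes, 9.04% had a lower log2 difference than Nr3c1 in WT.

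Hsd11b1, the activating enzyme, was lower in wounds as well. The WT NS libraries held 11.2, 17.1 and 14.1 RPKM and the WT 5dw libraries 3.49, 2.13 and 3.51. The Act NS libraries held 17.0, 14.8 and 5.16, of which the library numbered 3 was the lowest of all NS libraries, and the Act 5dw libraries held 2.81 and 1.53. Means were 4.64-fold lower in the wounds of WT and 5.66-fold lower in those of Act. The log2 difference was -2.05 (SE 0.38, limma adjusted p = 0.00113) in WT and -2.14 (SE 0.43, adjusted p = 0.00237) in Act. Hsd11b1 lies at chr1:193221634-193264075 on the minus strand of GRCm38 and overlaps Lamb3, a laminin gene of keratinocytes, which was at 1.08 to 8.59 RPKM. The sources used here do not say how reads in the overlap were counted, and the part of Lamb3 reads in the Hsd11b1 values was not tested.

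Tsc22d3 encodes GILZ, a leucine zipper protein that carries part of the anti-inflammatory action of glucocorticoids. The gene (chrX:140539528-140600659, minus strand) was at 17.8, 10.3 and 16.4 RPKM in WT NS and at 19.4, 25.4 and 12.2 in Act NS. All wound libraries lay in a narrow band, at 2.14, 2.53 and 2.76 for WT and 2.38 and 2.11 for Act. The means differed 6.00-fold in WT (14.9 ± 4.01 against 2.48 ± 0.311, n = 3 each) and 8.46-fold in Act (19.0 ± 6.65, n = 3, against 2.25 ± 0.188, n = 2). On the log2 scale this was -2.33 (SE 0.26, limma adjusted p = 4.84e-05) in WT and -2.77 (SE 0.29, adjusted p = 4.91e-05) in Act. Tsc22d3 moved from about the level of Nr3c1 in NS to below it in 5dw, on the RPKM scale.

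Zbtb16, which encodes the zinc finger repressor PLZF, was lower in wounds. The gene (chr9:48654297-48836222, minus strand) was at 4.59, 5.06 and 8.43 RPKM in WT NS and at 2.88, 10.1 and 4.59 in Act NS, so that its spread among NS libraries was wide. In the wounds it was under 1 in every library, at 0.306, 0.673 and 0.374 for WT and 0.191 and 0.413 for Act. The means were 13.4-fold lower in WT 5dw and 19.4-fold lower in Act 5dw. The log2 difference was -2.75 (SE 0.36, limma adjusted p = 0.000151) in WT and -2.84 (SE 0.41, adjusted p = 0.000384) in Act, smaller than the ratios because the 0.5 RPKM added before the log weighs on values this low. In WT, 1.36% of tested genes had a lower log2 difference.

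Klf9 encodes a Krüppel-like transcription factor that is a direct receptor target in many tissues, and lies at chr19:23141226-23168134 on the plus strand. Its NS libraries held 43.6, 45.4 and 40.7 RPKM in WT and 39.0, 51.0 and 43.4 in Act. The wound libraries held 13.6, 20.0 and 14.9 for WT and 16.9 and 13.1 for Act. Means were 2.67-fold lower in WT wounds and 2.97-fold lower in Act wounds. The fitted log2 difference was -1.41 (SE 0.17, limma adjusted p = 7.57e-05) in WT and -1.54 (SE 0.19, adjusted p = 0.000127) in Act.

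Sgk1, a serum- and glucocorticoid-induced kinase that regulates ion transport and cell survival, went the other way. The gene (chr10:21882184-21999903, plus strand) was at 49.0, 56.6 and 48.1 RPKM in WT NS and at 41.7, 62.1 and 53.5 in Act NS. The WT 5dw libraries held 120.4, 134 and 149 and the Act 5dw libraries 95.1 and 112. The wound means were 2.63-fold higher in WT (134 ± 14.3 against 51.2 ± 4.68, n = 3 each) and 1.97-fold higher in Act (103 ± 11.6, n = 2, against 52.4 ± 10.2, n = 3). This came to a log2 difference of 1.38 (SE 0.16, limma adjusted p = 7.14e-05) in WT and 0.99 (SE 0.18, adjusted p = 0.00156) in Act, and 2.51% of tested genes had a higher difference in WT. The Sgk1 window printed above, with the full response element, belongs to 1 of 6 Sgk1 entries, and the gene-level values do not tell which start was used.

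Fkbp5 encodes the immunophilin that lowers the hormone affinity of the receptor, and is itself a receptor target. The gene (chr17:28399094-28517527, minus strand) was the lowest member in WT NS, at 3.19, 3.73 and 5.10 RPKM, with 2.96, 4.12 and 3.09 in Act NS. The WT 5dw libraries held 3.77, 2.97 and 3.18 and the Act 5dw libraries 3.11 and 3.46, within the NS range. Its log2 difference was -0.23 (95% interval -0.61 to 0.15, limma adjusted p = 0.27) in WT and -0.03 (-0.45 to 0.39, adjusted p = 0.917) in Act. After median-ratio scaling it was 0.19 and 0.29, so its sign depends on the scaling. The intervals leave room for modest changes either way, but a fall of the size seen for Klf9 lies outside them.

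Dusp1 encodes a phosphatase that switches off MAP kinases, and was among the highest of the members. The gene (chr17:26505590-26562128, minus strand) overlaps Ergic1, which was at 14.4 to 21.9 RPKM. Dusp1 was at 591, 395 and 433 RPKM in WT NS and at 396, 469 and 397 in Act NS. The WT wound libraries held 354, 389 and 434 and those of Act 374 and 427. Groups overlapped, the WT NS library numbered 1 lay above all others, and the log2 difference was -0.25 (-0.63 to 0.12, limma adjusted p = 0.223) in WT and -0.07 (-0.49 to 0.35, adjusted p = 0.793) in Act. Scaling turned its sign to 0.23 and 0.30. With 1 library left out at a time, without scaling, it ran from -0.37 to -0.08 in WT and from -0.16 to 0.03 in Act. Dusp1 is also a gene that cells switch on when tissue is dissociated. The 13 dissociation-response genes summed to 6195 to 9817 RPKM in NS and 5848 to 7360 in 5dw, and their part in the level of Dusp1 was not tested.

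Mt1 and Mt2 encode small cysteine-rich proteins that bind zinc and copper. Mt1 was at 464, 566 and 356 RPKM in WT NS, 385, 711 and 489 in Act NS, 383, 479 and 474 in WT 5dw, with 339 and 441 for Act 5dw. Its groups overlapped, with log2 differences of -0.04 (-0.57 to 0.50, limma adjusted p = 0.909) in WT, which turned to 0.44 after scaling, and -0.40 (-1.0 to 0.19, adjusted p = 0.243) in Act, which was -0.03 after scaling and ran from -0.61 to -0.17 with 1 library left out at a time. Mt2 was at 690, 1151 and 652 RPKM in WT NS, 629, 1342 and 968 in Act NS, 978, 1389 and 1169 in WT 5dw, with 1218 and 1180 for Act 5dw. The wound libraries lay in or above the upper part of the NS range. The log2 difference of Mt2 was 0.54 (-0.09 to 1.17, limma adjusted p = 0.127) in WT and 0.36 (-0.35 to 1.07, adjusted p = 0.381) in Act. Median-ratio scaling brought Mt2 to 1.02 (adjusted p = 0.0126) in WT and 0.73 (adjusted p = 0.0828) in Act, and the fit with the replicate number as a block gave 0.54 (adjusted p = 0.0212) in WT. Single NS libraries bore on these values. With 1 library left out at a time, the difference in WT ran from 0.39 without WT NS numbered 3 to 0.80 (limma adjusted p = 0.0344) without WT NS numbered 2. In Act it ran from 0.07 without Act NS numbered 1 to 0.62 without Act NS numbered 2.

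**Figure D2:**
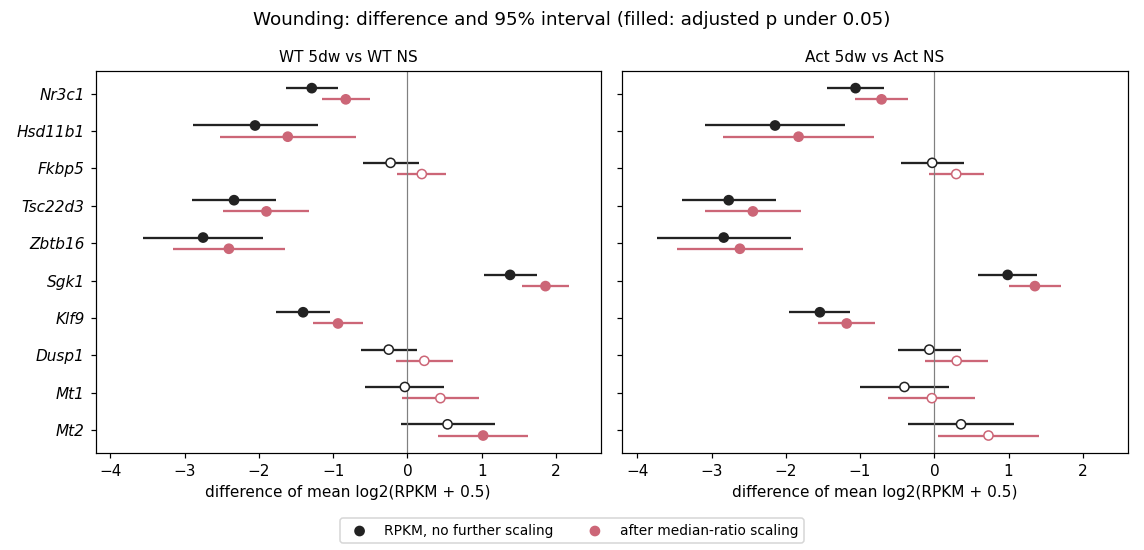
Difference of mean log2(RPKM + 0.5) between 5dw and NS (horizontal axis) for the 10 members in WT (left) and Act (right), with 95% intervals, on the RPKM scale (black) and after median-ratio scaling (red); filled points have an adjusted p under 0.05. The 5 lower members and Sgk1 are filled on both scales, and Mt2 in WT is filled after scaling.

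The ratio of Mt2 to Mt1 within a library does not depend on the scaling. It was chosen after the values were seen. It was 1.49, 2.03 and 1.83 in WT NS and 1.63, 1.89 and 1.98 in Act NS. The wounds gave 2.55, 2.90 and 2.47 for WT and 3.59 and 2.68 for Act. All 5 wound libraries were above all 6 NS libraries, with a difference of mean log2 ratio of 0.58 in WT and 0.76 in Act. As the ratio was picked for its values, these are descriptions with no test. Mt2 lies at chr8:94172664-94173568 and Mt1 at chr8:94179082-94180327, both on the plus strand of GRCm38. Of the 31-base sequences of Mt2, 58.1% also occur in another gene, 57.6% in Gm45774, which overlaps it and had no row of its own, so the Mt2 values are uncertain where counting could split such reads.

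**Figure D3:**
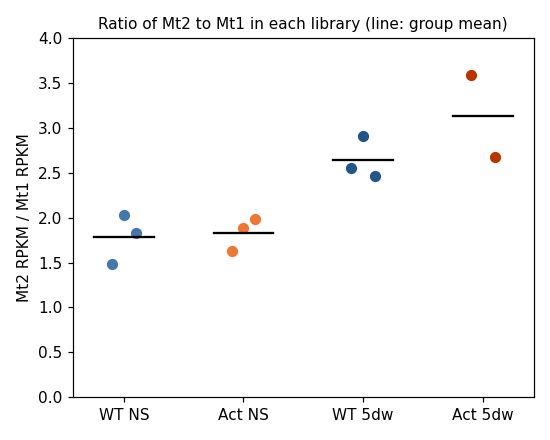
Ratio of Mt2 RPKM to Mt1 RPKM (vertical axis, linear from 0) in each of the 11 libraries by group, with a line at the group mean. NS libraries lie at 1.49 to 2.03 and 5dw libraries at 2.47 to 3.59.

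By level, the members held nearly the same order in both tissues, with a change at the low end. In WT NS, mean RPKM ran from Mt2 through Dusp1, Mt1, Sgk1, Klf9, Nr3c1, Tsc22d3, Hsd11b1 and Zbtb16 to Fkbp5. Dusp1 and Mt1 did not differ beyond their spread there, nor did Nr3c1, Tsc22d3 and Hsd11b1, nor Zbtb16 and Fkbp5. In WT 5dw the order was Mt2, Mt1, Dusp1, Sgk1, Klf9, Nr3c1, Fkbp5, Hsd11b1, Tsc22d3 and Zbtb16. Fkbp5 had thus moved above Hsd11b1 and Tsc22d3 with no called change of its own, although Fkbp5 and Hsd11b1 (3.31 ± 0.415 and 3.04 ± 0.794, n = 3) did not differ beyond their spread.

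Activin overexpression made no difference that passed the test for any member. Between Act NS and WT NS, 0 of 10 members were called (limma), against 0.0167% of all tested genes on either scale. At an unadjusted p under 0.05 were 0 members and 824 of the 11979 tested genes. Between Act 5dw and WT 5dw, 0 of 10 were called, against 0.0334% of all genes (0.0167% after scaling). At an unadjusted p under 0.05 were 0 members and 386 of all tested genes. For the interaction of wounding and genotype, 0 of 10 members and 0% of all genes were called on either scale. At an unadjusted p under 0.05 were 0 members and 400 of all tested genes. At such shares, 0 of 10 does not set the members apart from other genes. limma-voom on recovered reads called 0 of the 8 members it could test in each of these 3 comparisons. A p that misses the threshold does not show that the genotypes are alike, and the intervals give the sizes that remain possible.

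The widths of the intervals differed between members. In NS, the log2 difference between genotypes was -0.18 (-0.53 to 0.17) for Nr3c1, 0.03 (-0.33 to 0.40) for Klf9 and 0.02 (-0.34 to 0.38) for Sgk1. These intervals lie within a log2 difference of 0.53 either way. For Hsd11b1 it was -0.33 (-1.17 to 0.51), for Zbtb16 -0.16 (-0.96 to 0.65) and for Tsc22d3 0.32 (-0.24 to 0.89), where single NS libraries differed more from each other. With 1 library left out at a time these ran from -0.63 to 0.18, from -0.61 to 0.22 and from 0.09 to 0.60. Nr3c1 ran from -0.31 to -0.06, Klf9 from -0.07 to 0.12 and Sgk1 from -0.11 to 0.17. The sign for Hsd11b1, Zbtb16, Klf9 and Sgk1 thus depends on single libraries. In the wounds Sgk1 came nearest to a difference among the members: both Act 5dw libraries, at 95.1 and 112, lay below the 3 WT 5dw libraries, at 120.4 to 149. With so few libraries such separation can arise by chance. Ptges3 and Pdgfra, for instance, showed it too, and its share over all tested genes was not counted. For Sgk1 the test decides more than the separation. Its log2 difference was -0.38 (-0.78 to 0.02, limma adjusted p = 1). After median-ratio scaling, Sgk1 had an unadjusted p of 0.049 in this comparison and of 0.039 for the interaction (limma adjusted p = 1 and 0.99996).

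**Figure D4:**
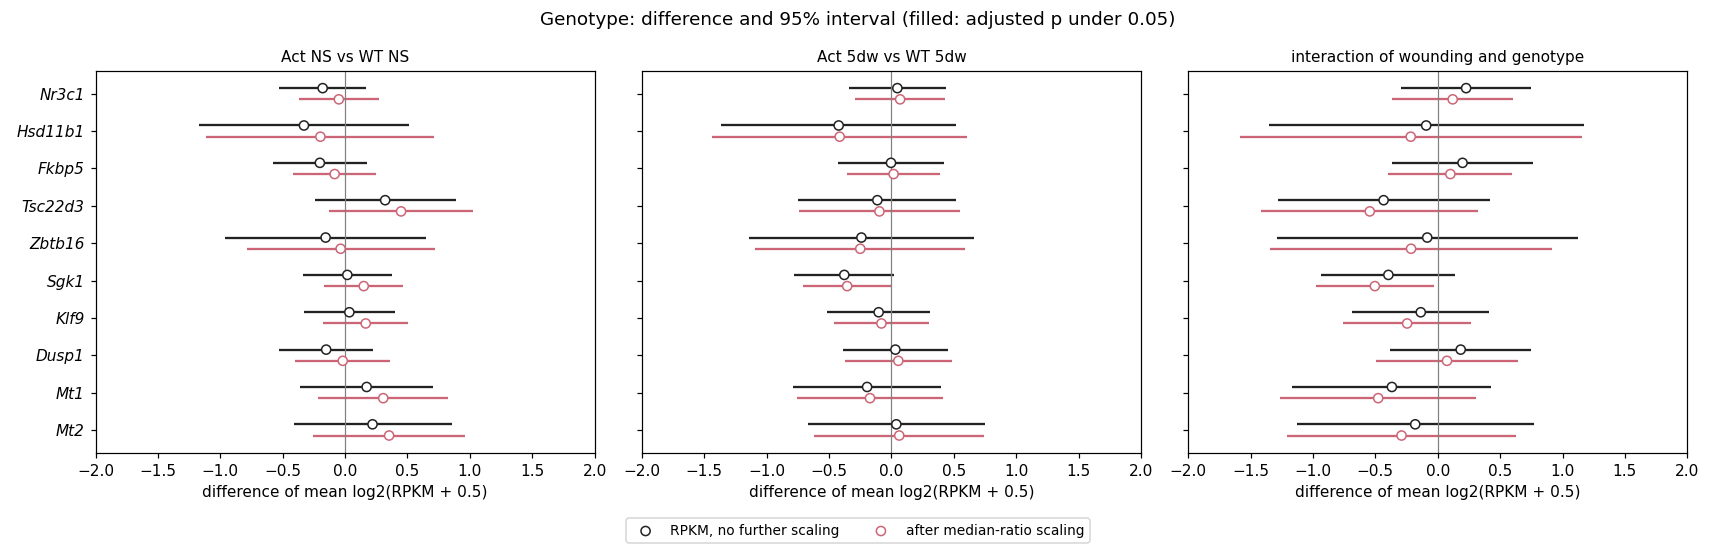
Difference of mean log2(RPKM + 0.5) between Act and WT (horizontal axis) for the 10 members in NS (left), in 5dw (middle) and as the interaction with wounding (right), with 95% intervals, on the RPKM scale (black) and after median-ratio scaling (red). All points are open, as no adjusted p was under 0.05. Most intervals cross 0, with Sgk1 after scaling as the exception in the wounds and the interaction.

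Around the members, genes of the same pathway were read from the same fit. Of 10 coregulators of the receptor, 8 were lower and 0 higher in both genotypes, with a median log2 difference of -0.79 in WT and -0.67 in Act, against -0.40 and -0.31 over all genes. Of all tested genes, 48.8% were called lower in WT and 36.5% in Act. After median-ratio scaling 6 coregulators were lower and 2 higher in WT, and 5 lower and 1 higher in Act, where 21.2% and 20.4% of all genes were lower. Ncoa1, a coactivator of steroid receptors, was at 8.94 to 9.79 RPKM in WT NS and 2.90 to 3.84 in WT 5dw (log2 difference -1.41), and Ncoa3, of the same family, showed a log2 difference of -1.23. Both passed the test in Act as well, at -1.27 and -1.21.

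Of the receptor's chaperones and the other enzymes and receptor of corticosteroids, 11 of 15 could be tested. In WT 5 were lower and 0 higher, near the 48.8% of all genes called lower, and in Act 2 were lower and 0 higher, a smaller share than the 36.5% of all genes. After scaling 2 were lower and 4 higher in WT and 0 lower and 4 higher in Act. Over all genes 21.2% were then lower and 23.4% higher in WT, and 20.4% and 20.3% in Act. The direction of the list thus depends on the scaling, as it does for all genes. Fkbp4, the immunophilin that competes with FKBP51, was at 20.9 to 24.5 RPKM in WT NS and 10.6 to 13.1 in WT 5dw (log2 difference -0.90, limma adjusted p = 0.00188). Ptges3, the cochaperone p23, had a log2 difference of -0.96 (adjusted p = 0.00185). H6pd, chosen after its values were seen, supplies the cofactor of the Hsd11b1 enzyme. It was at 7.06 to 11.6 RPKM in WT NS and 11.3 to 13.05 in WT 5dw, with a log2 difference of 0.40 (adjusted p = 0.0849) that was 0.86 (adjusted p = 0.00411) after scaling. Hsd11b2, which inactivates glucocorticoid, was under 1 RPKM in every library.

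Other genes that glucocorticoids induce did not move as 1 block. Of 27 tested, 17 were lower and 6 higher in WT, and 15 lower and 5 higher in Act, with medians of -0.90 and -0.94. Over all genes 48.8% were lower and 9.45% higher in WT, and 36.5% and 9.04% in Act, with medians of -0.40 and -0.31. After scaling 12 were lower and 8 higher in WT and 13 lower and 6 higher in Act, against 21.2% lower and 23.4% higher over all genes in WT and 20.4% and 20.3% in Act. Txnip, an inhibitor of thioredoxin, was at 56.8 to 92.6 RPKM in WT NS and 9.45 to 10.1 in WT 5dw (log2 difference -2.74), and Sult1a1, a sulfotransferase, had a log2 difference of -2.75. In contrast, Lcn2, which encodes the siderophore-binding lipocalin 2, rose from 0.184 to 0.282 RPKM in WT NS to 10.5 to 21.9 in WT 5dw (log2 difference 4.32). Ddit4, an inhibitor of mTORC1, showed a log2 difference of 2.08. Of genes chosen after their values were seen, the clock gene Per1 had log2 differences of -1.77 in WT and -1.89 in Act, and Foxo1 of -2.21 and -2.10.

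Inflammatory genes that glucocorticoids repress were mostly higher in wounds. Of 18 tested, 12 rose and 1 fell in WT, while 10 rose and 1 fell in Act, with medians of 1.19 and 1.16. Of all genes, 9.45% were called higher in WT and 9.04% in Act. After scaling 14 and 10 of the list were higher, against 23.4% and 20.3% of all genes. Nos2, the inducible nitric oxide synthase, was at 0.0608 to 0.137 RPKM in WT NS and 20.6 to 29.3 in WT 5dw (log2 difference 5.33), and the chemokine Cxcl5 had a log2 difference of 5.28. Icam1, an adhesion molecule, was the member of the list that fell, from 235 to 373 RPKM in WT NS to 101 to 116 in WT 5dw (log2 difference -1.41). Il6 and Ccl2 were high in both tissues, at 254 to 573 and 512 to 1560 RPKM in WT NS, and did not pass the test. Of 5 immune markers that could be tested, 3 were higher in WT and 2 in Act, and 0 were lower. The 11 in the table summed to 6.61 to 38.8 RPKM in NS and 66.2 to 117 in 5dw. In the wounds most of that sum was Cd3e, at 2.94 to 33.9 RPKM in NS and 55.5 to 105 in 5dw, although CD3 was a negative marker of the sort. The other marker whose tissues did not overlap was S100a9, and 6 of the 11 were under 1 in every library. The part of immune cells in the values of the list was not tested.

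**Figure D5:**
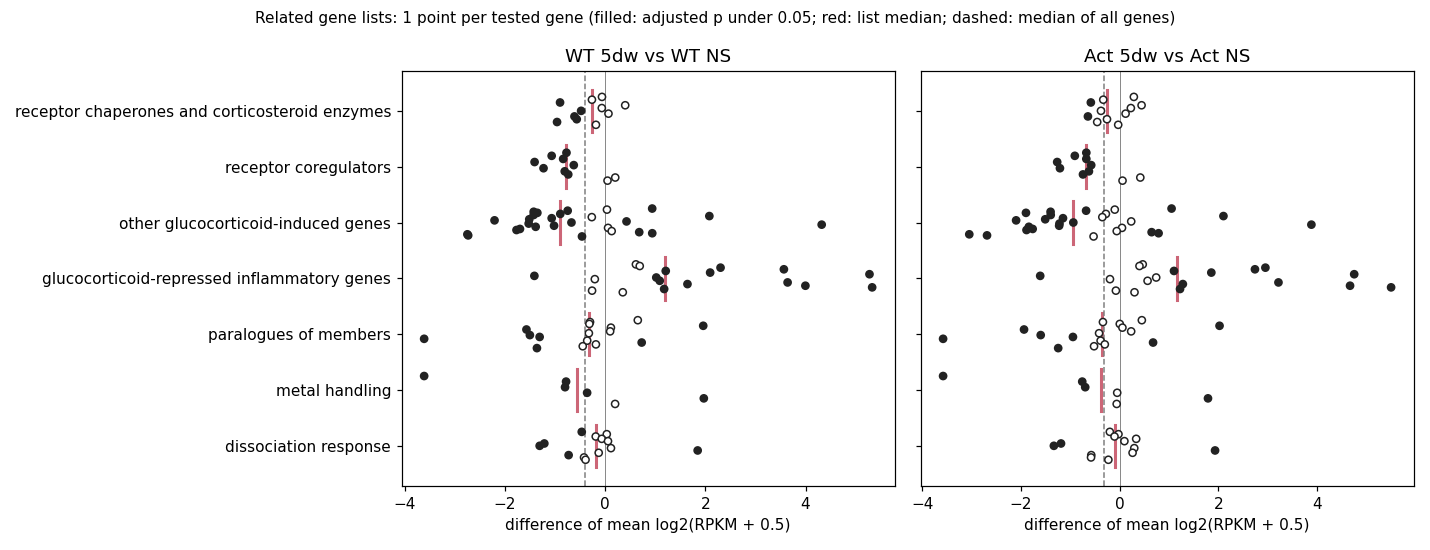
Difference of mean log2(RPKM + 0.5) between 5dw and NS (horizontal axis) for the tested genes of 7 lists related to the receptor axis, in WT (left) and Act (right), with 1 point per gene, filled where the adjusted p is under 0.05. The red bar is the median of each list and the dashed line the median of all tested genes, -0.40 in WT and -0.31 in Act. Coregulators and other induced genes lie mostly left of 0 and inflammatory genes mostly right of it.

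Paralogues of the members did not share 1 direction. Of 16 tested, 5 were lower and 2 higher in each genotype, with medians of -0.32 in WT and -0.36 in Act, close to those of all genes. Fewer were lower than among all genes in WT (48.8%), and the higher ones were near the share of all genes (9.45%). After scaling 5 were lower and 4 higher in WT and 5 lower and 3 higher in Act. Over all genes 21.2% were then lower and 23.4% higher in WT, and 20.4% and 20.3% in Act, so the higher counts were near those shares. Tsc22d1 rose where Tsc22d3 fell, with a log2 difference of 0.73 (limma adjusted p = 0.00759) in WT. Among phosphatases related to Dusp1, Dusp4 showed a log2 difference of 1.96 and Dusp6 of -1.57. Mt4, the metallothionein of stratified epithelium, was at 7.40 to 11.1 RPKM in WT NS and 0.193 to 0.396 in WT 5dw (log2 difference -3.61), while Mt3, of the nervous system, was under 0.2 throughout.

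Of 6 metal-handling genes tested, 1 was higher and 4 were lower in WT, and 1 higher and 3 lower in Act, with medians of -0.57 and -0.38. Of all genes, 48.8% and 36.5% were called lower. After scaling 2 were higher and 3 lower in each. Of all genes 23.4% were then higher and 21.2% lower in WT, and 20.3% and 20.4% in Act. Slc39a14, a zinc and iron importer, was at 6.67 to 10.3 RPKM in WT NS and 30.4 to 37.6 in WT 5dw (log2 difference 1.97, limma adjusted p = 2.26e-05). Slc30a1, the zinc exporter that MTF1 induces, was lower, with a log2 difference of -0.80 (adjusted p = 0.00119). Of 13 dissociation-response genes, 1 was higher and 4 lower in WT, and 1 higher and 2 lower in Act, with medians of -0.19 and -0.10. Their share called lower was smaller than the 48.8% and 36.5% of all genes. After scaling 4 and 3 were higher and 0 lower, where 23.4% and 20.3% of all genes were higher. Ier3, a stress-induced survival gene, had a log2 difference of 1.85, and the heat shock genes Hspa1b and Hspa1a of -1.31 and -1.21, which missed the threshold after scaling. No gene of any of the 7 lists was called in a comparison of genotypes.

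Markers of keratinocytes moved with wounding in the same direction as the lower members. The 14 markers summed to 1234 to 4897 RPKM in NS and 133 to 1020 in 5dw, and 12 of 14 were called lower in WT and 13 in Act, where 48.8% and 36.5% of all genes were. After scaling 10 were lower in each, where 21.2% and 20.4% of all genes were lower and 23.4% and 20.3% higher. Krt77 was at 99.9 to 559 RPKM in NS and 0.932 to 5.05 in 5dw. The WT 5dw library numbered 3 held the sum of 1020, against 133 to 322 in the other wound libraries, and Krt14 (192 to 493 in NS, 57.8 to 528 in 5dw) and Krt5 (160 to 410 and 24.5 to 253) overlapped between the tissues. None of the 14 was under 1 RPKM in all libraries. The sum was highest, at 4897, in the Act NS library numbered 3. In that library Nr3c1 was the highest of its group, Hsd11b1 and Tsc22d3 were the lowest, and Zbtb16 and Klf9 lay between the others. Fibroblast markers did not move 1 way. Of the 10 tested, 3 were called higher and 4 lower in WT (median log2 difference -0.12), and 3 higher and 3 lower in Act (-0.38). Over all genes 9.45% were higher and 48.8% lower in WT, and 9.04% and 36.5% in Act, so the lower counts were near those of all genes. After scaling 4 were higher and 1 lower in WT (median 0.35), and 3 higher and 3 lower in Act. Their sum, carried by collagen genes, was 12241 to 17906 RPKM in NS and 23453 to 26848 in 5dw. All 3 Schwann cell markers that could be tested were lower in both genotypes, where 48.8% and 36.5% of all genes were. After scaling 2 were lower in WT and 3 in Act. Their list summed to 5.45 to 10.7 in NS and 0.811 to 1.06 in 5dw. Of 6 pericyte and smooth muscle markers tested, 0 were higher and 3 lower in WT, and 1 higher and 2 lower in Act. The lower counts were near the 48.8% and 36.5% of all genes. After scaling 1 was higher and 1 lower in each, near the scaled shares of all genes given above. Of 4 endothelial markers tested, 1 was higher and 1 lower in WT, and 2 higher and 1 lower in Act. After scaling 2 were higher and 1 lower in WT, and 2 higher and 0 lower in Act. Of 3 adipocyte markers tested, 1 was lower in each genotype on both scales. The 1 skeletal muscle marker tested was lower in both genotypes and was not called after scaling. The part of any of these cell types in the members' values was not tested.

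The genes whose pattern over the 11 libraries was most like each member were found as those with the smallest root mean square difference of log2(RPKM + 0.5) after centring, which is a description with no test. For Nr3c1 they were Adcy9 (0.0928) and Dbndd2 (0.0958), and for Klf9 Fgf10 (0.112) and Irf9 (0.113). Tsc22d3 was nearest to Dpep1 (0.252) and Agt (0.255), Hsd11b1 to Col4a4 (0.361) and Agtr1a (0.397), and Zbtb16 to Adamtsl3 (0.361) and Ccl27a (0.374), all at a greater distance. Sgk1 was nearest to Nuf2 (0.127) and Enc1 (0.143). The genes that did not pass had Mrps21 (0.11) and Rapgef2 (0.112) beside Fkbp5, Rnf145 (0.0758) and Cpt1c (0.0932) beside Dusp1, Ccrl2 (0.158) and Col11a2 (0.164) beside Mt1, and Spsb1 (0.0986) and Tifa (0.131) beside Mt2. No member was among the nearest pair of another member.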

How the data were processed

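Poly-A RNA of sorted mouse fibroblasts was read as 100 bp reads in 11 libraries. Alignment to GRCm38 was done by the authors in CLC Genomics Workbench 12, and they deposited RPKM values per gene symbol, of which 21178 of 47643 were at 0 in all libraries. The sources used here do not say how strand and reads with several matches were treated. The edgeR exact test that the authors ran takes counts and was not applied to RPKM values.

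Groups were taken from the sample labels. Values were log2(RPKM + 0.5), computed here from the deposited RPKM. The 11979 genes that reached an RPKM of 1 in 2 or more libraries were fitted with limma 3.58.1 (limma-trend, R 4.3.3) with 1 mean per group over all 11 libraries, 7 residual and a median of 3.89 prior degrees of freedom. Comparisons were 5dw against NS in each genotype, Act against WT in each tissue, and the interaction, with Benjamini-Hochberg adjustment over all tested genes. The members, the 7 related lists and the marker lists were chosen with earlier results of these data known. All members are named, and from each list up to 2 highest and 2 lowest called genes in WT 5dw against WT NS, and the 2 genes most alike to each member. Genes outside this rule are Hsd11b2, Il6, Ccl2, Mt3, Krt5 and Krt14, beside those marked in the text, and were chosen after their values were seen. Pdgfra, Ptprc and Inhba are named as checks of the sort and the transgene, and Lamb3, Ergic1 and Gm45774 as genes that overlap a member.

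Libraries with the same number deviated together from their group means in all 3 pairs of WT NS and WT 5dw (r = 0.188, 0.12 and 0.109). The same held for WT NS and Act NS (0.554, 0.423 and 0.334). The number thus looked like a pairing there, from the data and not from the labels. With Act 5dw only 2 pairs exist, with r = 0.0187 and 0.143 for Act NS and -0.0777 and 0.189 for WT 5dw, so no pairing was read there. The main fit used no pairing. The replicate block was an alternative, under which Mt2 passed in WT (limma adjusted p = 0.0212) and in Act (0.0375). Replicates differed by far more than sampling noise (chi-square per gene 45.4 to 147), so none was counted as a repeat of another.

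Mapped totals were recovered as the number that makes RPKM times gene length whole, within 0.03, for 76.0% to 77.8% of low values. The number of libraries limits the precision. Coordinates are of GENCODE M21. Alternatives were a pseudocount of 0.1 or 1, no filter, a filter at 5 RPKM, median-ratio scaling, quantile normalization, no trend, array weights, a replicate block, only the groups compared, and each library left out. Added after seeing the data were limma-voom on recovered reads with and without median-ratio scaling, and both NS libraries numbered 1 left out.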

Additional observations from a re-analysis of the deposited data

How the results depend on the processing

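The 6 members called with wounding kept their direction and passed the threshold in both genotypes under every alternative that could test them, and 0 members were called in a comparison of genotypes under any. Of 1165 values of single members under alternatives, 1158 kept their direction and side of the threshold or were uncalled in both, and 7 passed where the reported value did not. The count of members higher in WT wounds, 1 as reported, was 2 with median-ratio scaling, quantile normalization, the replicate block, and limma-voom with median-ratio scaling, and 1 to 2 when each library was left out. The added gene was Mt2 each time. The count higher in Act wounds was 2 with the replicate block, again through Mt2 (0.57, limma adjusted p = 0.0375), and the block changed no other call of a member. Over all alternatives the log2 difference of Mt2 in Act ran from 0.0071 to 0.73. Mt1 in Act passed with array weights, at -0.71 (limma adjusted p = 0.0281). The count of lower members, 5 as reported, was 3 in WT and 3 in Act with limma-voom, with or without median-ratio scaling, because Hsd11b1 and Zbtb16 gave no whole reads and were not among the 8 members tested. Over the alternatives, the log2 difference in WT ran from -1.42 to -0.83 for Nr3c1, -2.57 to -1.90 for Tsc22d3, -3.48 to -2.21 for Zbtb16 and 1.31 to 1.86 for Sgk1. Over all genes the replicate block called 7317 in WT and 5718 in Act, against 6978 and 5459 without it. Leaving 1 Act 5dw library leaves that group with a lone sample, which is then assumed to vary like the other groups.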
